A study of Mus musculus with 6 samples.

Results

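The genes described here are 10 components of insulin-like growth factor (IGF) and insulin signalling. They were chosen by symbol among the 24129 gene names of the table, with earlier results of these data known. They are the ligand Igf1, the receptors Igf1r and Insr, the docking proteins Irs1 and Irs2, and the binding proteins Igfbp2, Igfbp3, Igfbp4, Igfbp5 and Igfbp6. Their transcripts were compared between 2 tumor cell populations named T1 and T2, with 3 replicates of each, in poly(A)-selected RNA. Both populations descended from 4T1, a carcinoma line of the mouse mammary gland, which carried GFP and had been implanted into the mammary fat pad of BALB/c mice. The tumor cells outgrew a culture of sorted stromal cells and were then sorted again by their GFP. T1 cells had low GFP and an adherent, epithelial morphology in culture. T2 cells had high GFP, were round and attached loosely, and were passaged without trypsin, as a suspension culture would be. Both were grown in DMEM/F-12 with fetal bovine serum and antibiotics. Each population is a sorted culture and not a tumor, so a higher level in the RNA of a whole culture cannot be told apart from a larger share of cells that carry the transcript.

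IGFs and insulin are secreted hormones that bind receptor tyrosine kinases at the cell surface. The activated receptors phosphorylate the docking proteins Irs1 and Irs2, which recruit phosphoinositide 3-kinase (PI3K) and so start the AKT and mTOR cascade of growth, survival and nutrient uptake. The IGF binding proteins hold IGFs in extracellular fluid and limit or prolong their access to the receptor, and proteases that cleave the binding proteins release the hormone. In the mammary gland and its carcinomas the pathway is known as a growth and survival signal.

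The libraries held 18133227 to 20839686 reads on genes, and 3 reads, the limit that a count of 0 allows, corresponded to 2.78 to 3.17 normalized counts. The summed level of 4 carcinoma markers was 60167 to 66104 normalized counts in T1 cells and 37472 to 43407 in T2 cells. Within them Epcam was 2931 to 3502 in T1 cells and 30.7 to 37.2 in T2 cells, and Cdh1 was 13726 to 15461 against 453 to 484. The keratins Krt8 and Krt18 lay between 17356 and 25833 in every library. Of 8 fibroblast markers, 4 were at 0 in all libraries (Col3a1, Lum, Pdgfrb and Thy1). The fibroblast sum was 146 to 202 in T1 cells and 0 to 0.979 in T2 cells. Most of it was Postn, at 126 to 162 in T1 cells and 0 in T2 cells. Col1a1 was at 14.8 to 27.9 in T1 cells and at most 0.979 in T2 cells. Col1a2 was at 4.23 to 11.7 in T1 cells and 0 in T2 cells, and Dcn reached 3.90 in T1 cells. The leukocyte sum reached 15.8 and the endothelial sum 5.29 in the highest library, and adipocyte markers gave at most 0.928. The part of these marker differences in the results was not tested.

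Of the 10 genes, 3 had no read in any library (Igfbp2, Igfbp3 and Igfbp5), Igf1 had 1 read in all, and 6 passed the filter on low values. These 6 were read from a limma fit to log2(normalized count + 1) over all 11514 genes whose mean reached 10 normalized counts, and a gene was called at a Benjamini-Hochberg adjusted p under 0.01. Irs1 was higher in T1 cells. Igf1r, Insr, Igfbp4 and Igfbp6 were lower in T1 cells, and Irs2 was not called. In the whole table, 25.1% of the genes tested were called higher in T1 cells and 24.4% lower, so a call alone does not set a gene apart. With the further requirement of an absolute log2 fold change above 2, which the study's methods use, Irs1 remained on the T1 side and Igfbp4 and Igfbp6 on the T2 side, where the same requirement left 4.17% and 4.2% of all genes. The values of the populations did not overlap for 5 of the 6 genes, against 68.1% of all genes tested. The median log2 fold change of the 6 was -0.55, and that of all genes tested was -0.0055. Igfbp6 passed the filter through its level in T2 cells, since its mean in T1 cells was under 10 normalized counts.

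**Figure D1:**
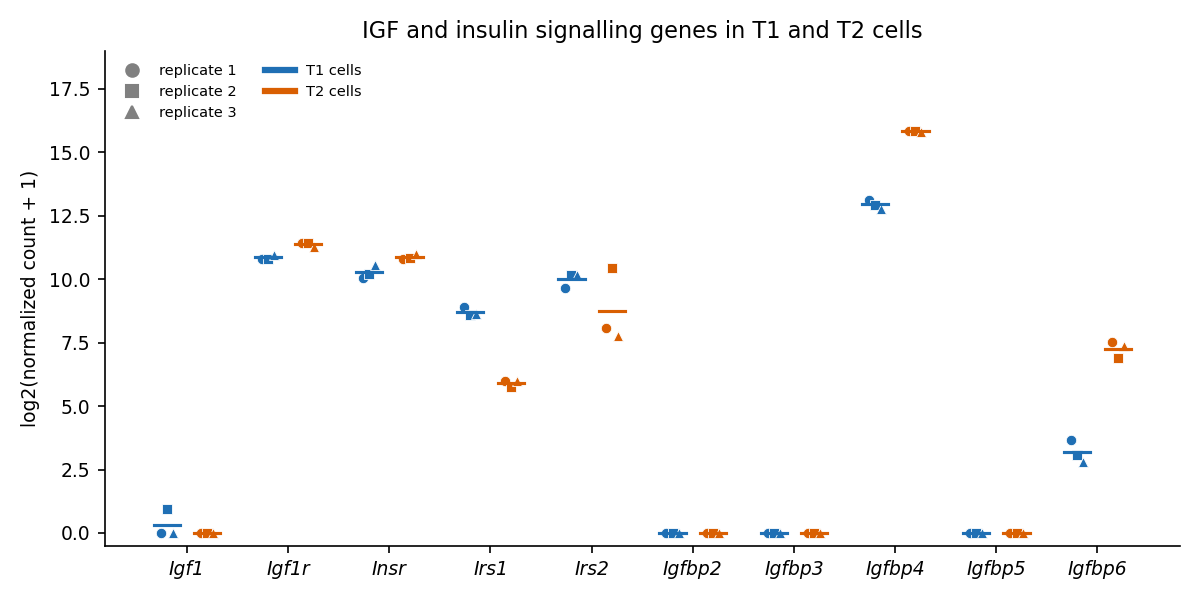
Level of the 10 genes in each library, on a log2(normalized count + 1) scale, with T1 cells in blue and T2 cells in orange; symbols mark the replicates and horizontal lines the mean of the 3 log2 values. Irs1 is higher in T1 cells and Igfbp4 and Igfbp6 are higher in T2 cells. Igfbp2, Igfbp3 and Igfbp5 lie at 0 in all 6 libraries, and for Irs2 T2 replicate 2 lies above the T1 libraries.

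The promoters of the 3 genes with the largest differences are shown because these genes moved furthest, Igfbp4 and Igfbp6 toward T2 cells and Irs1 toward T1 cells. Each sequence is the 250 bases before the RefSeq gene start in build GRCm38.p6, on the strand of the gene. Capitals mark a TATA box (TATAAA) or a GC box (GGGCGG) on either strand. Igfbp4 lies at chr11:99041244-99054392 (+) in mm10, Igfbp6 at chr15:102144362-102149511 (+) and Irs1 at chr1:82233101-82291416 (-). For Igfbp6 and Irs1 the RefSeq start lies upstream of these GENCODE gene bounds. The windows shown are chr11:99040994-99041243, chr15:102143936-102144185 and chr1:82291440-82291689.
Igfbp4: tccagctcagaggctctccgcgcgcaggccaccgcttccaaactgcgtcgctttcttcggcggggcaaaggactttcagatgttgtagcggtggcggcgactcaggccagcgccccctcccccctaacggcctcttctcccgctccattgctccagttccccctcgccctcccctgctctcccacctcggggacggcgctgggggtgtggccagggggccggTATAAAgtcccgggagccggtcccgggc
Igfbp6: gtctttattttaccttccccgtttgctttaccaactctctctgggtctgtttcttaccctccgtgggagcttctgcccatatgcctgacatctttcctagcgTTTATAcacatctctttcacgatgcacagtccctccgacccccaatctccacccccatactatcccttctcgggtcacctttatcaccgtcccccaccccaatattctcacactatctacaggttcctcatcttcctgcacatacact
Irs1: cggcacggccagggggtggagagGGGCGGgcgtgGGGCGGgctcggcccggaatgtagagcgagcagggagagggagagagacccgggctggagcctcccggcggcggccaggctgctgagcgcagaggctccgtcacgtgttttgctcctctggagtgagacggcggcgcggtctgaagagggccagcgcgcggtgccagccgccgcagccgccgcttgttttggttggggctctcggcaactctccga

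The Igfbp4 window held a TATA box beginning 28 bases before the start, and 69.2% of its bases were G or C. The Igfbp6 window was poorer in G and C, with 49.6%, and held the TATA letters on the opposite strand, 148 bases before the start. The Irs1 window was 72.4% G or C, with GC boxes beginning 227 and 216 bases before the start. Of 32817 promoter windows of the same length, 12.4% held the TATA letters and 32.7% the GC box, and the median window was 52.4% G or C. The ratio of observed to expected CpG was 0.748 for Igfbp4, 0.651 for Igfbp6 and 0.896 for Irs1, with a median of 0.373 over all windows. The CACCTG form of the E box (in 17.2% of all windows), a forkhead motif (TGTTTAC, 3.16%) and an AP-1 motif (TGANTCA, 6.75%) were also searched for on both strands. None was among the letters of these 3 windows. Other forms of the E box, such as the CACGTG in the Irs1 window, were not searched for. No overlap between matches of different motifs searched for was found in the 3 windows. Of the 10 genes, 9 had a promoter entry and Insr had none. The Irs2 window had 72.8% G or C and 1 GC box, 85 bases before the start, and the Igf1r window had 77.6% and GC boxes 43 and 26 bases before it. A match of letters is a description of the sequence and not a site of binding.

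Transcripts of the ligands were at or near 0. Igf1, which encodes the IGF that liver and stromal cells secrete, was at 0.930 normalized counts in T1 replicate 2, a single read, and at 0 in the other 5 libraries. Igf2, the fetal growth factor of the family, had 1, 2 and 2 reads in T1 cells and 0 in each T2 library. The insulin genes Ins1 and Ins2 were at 0 throughout. All of these values lie at or under the limit that a count of 0 allows, so a difference in ligand transcripts was not detectable at this depth.

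Both receptor tyrosine kinases were lower in T1 than in T2 cells, by less than a log2 unit. Igf1r (chr7:67952827-68233668), the IGF receptor, was at 1797, 1787 and 1983 normalized counts in T1 cells and at 2713, 2744 and 2496 in T2 cells. Every T2 library lay above every T1 library, and the means were 1856 ± 110 and 2651 ± 135 (SD, n = 3). The log2 fold change of T1 against T2 cells was -0.51 (SE 0.080, 95% interval -0.69 to -0.34), with an adjusted p of 0.00027 by limma, and T2 cells held 1.43 times the T1 level. Insr (chr8:3122061-3279617), the insulin receptor, was at 1067, 1191 and 1527 in T1 cells and at 1772, 1831 and 2034 in T2 cells, again without overlap. Its log2 fold change was -0.59 (SE 0.13, 95% interval -0.87 to -0.31), with an adjusted p of 0.00222 by limma and 1.49 times the T1 level in T2 cells. This call was lost in limma without the variance trend (adjusted p = 0.0136) and without T2 replicate 3 (adjusted p = 0.0143).

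Igf1r and Insr can pair as hybrid receptors and share substrates, and their ratio was read in each library. Per kilobase of exon, Insr was at 0.827 ± 0.108 times the level of Igf1r in T1 cells and at 0.869 ± 0.109 times in T2 cells (SD, n = 3). The log2 difference of the ratio was -0.07, with an exact permutation p of 0.6 (two-sided), in a design whose smallest exact p is 0.1. It turned positive without T1 replicate 1 and without T2 replicate 3. Igf2r, the scavenger receptor that takes up IGF-II for degradation without signalling, was at 3428, 3767 and 4605 normalized counts in T1 cells and at 3128, 2845 and 3421 in T2 cells. The populations were separated by a narrow gap, and the log2 fold change of 0.32 (SE 0.11) had an adjusted p of 0.0297 by limma, which misses the threshold. The insulin receptor-related receptor Insrr was at 0.

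The docking protein Irs1 showed the largest difference toward T1 cells among the 6 genes. Irs1, which links both receptors to PI3K, was at 476, 384 and 394 normalized counts in T1 cells and at 61.7, 52.2 and 62.2 in T2 cells. The lowest T1 library lay far above the highest T2 library. The means were 418 ± 50.5 and 58.7 ± 5.61 (SD, n = 3), a ratio of 7.13, and the log2 fold change was 2.81 (SE 0.16, 95% interval 2.46 to 3.16) with an adjusted p of 2.32e-07 by limma. Across the 15 alternative settings the log2 fold change stayed between 2.71 and 2.87. The gene overlaps Gm9747, a protein-coding annotation on the opposite strand that is not a row of the table, and the library kit does not mark strand, so their reads cannot be told apart. The same holds for Insr and Gm16180, an antisense annotation.

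Irs2 (chr8:10984681-11008458), the docking protein that carries much of the insulin signal in liver and beta cells, behaved differently between the T2 libraries. It was at 808, 1148 and 1143 normalized counts in T1 cells and at 268, 1395 and 218 in T2 cells. T2 replicate 2 lay above every T1 library and the other T2 libraries lay below them, so the populations overlapped. The means were 1033 ± 195 and 627 ± 665 (SD, n = 3), and the log2 fold change of 1.23 (SE 0.55, 95% interval 0.01 to 2.45) had an adjusted p of 0.0735 by limma. Without T2 replicate 2 the log2 fold change was 2.07 and the adjusted p was 1.88e-05 by limma. With all libraries edgeR on the recovered reads gave 0.72 with an adjusted p of 0.277.

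In T2 replicate 2, Irs2 exceeded the higher of the other T2 libraries by 2.37 on the log2 scale, which was rank 4 of the 11514 genes. Of those genes, 94 (0.816%) were over 2-fold above both other T2 libraries in this library, against 19 in T2 replicate 1 and 56 in T2 replicate 3. The excess was also ranked among genes whose other T2 libraries averaged over 50 normalized counts. Genes named after their values were seen near the top of this ranking were Atf3, Hes1, Sik1, Dusp2, Nr4a2 and Klf10. They encode transcription factors, a kinase and a phosphatase. In T1 replicate 2, 30 genes were over 2-fold above both other T1 libraries. Ranked with the same limit of 50, Atf3 was near the top there too, beside Fos and Fosb. Irs2 in that library was level with T1 replicate 3. Irs1 was at 52.2 in T2 replicate 2, the lowest of the T2 values. What set T2 replicate 2 apart was not tested.

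**Figure D2:**
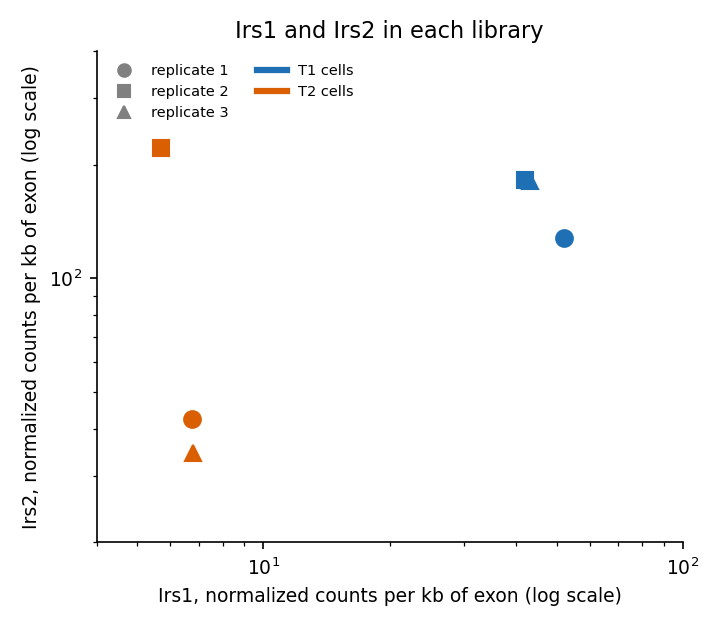
Irs1 (horizontal axis) against Irs2 (vertical axis) in each library, in normalized counts per kilobase of exon on log scales, with T1 cells in blue, T2 cells in orange and symbols for the replicates. The libraries part along the Irs1 axis. T2 replicate 2 stands above the T1 libraries in Irs2, with the Irs1 level of the T2 libraries.

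Per kilobase of exon, the ratio of Irs1 to Irs2 was 0.407, 0.231 and 0.239 in T1 cells and 0.159, 0.0259 and 0.197 in T2 cells. All T1 ratios exceeded all T2 ratios, and Irs2 was the more abundant of the pair in each of the 6 libraries. The log2 difference was 1.60, with an exact permutation p of 0.1 (two-sided), the smallest that 3 samples against 3 allow. Without T2 replicate 2 the log2 difference was 0.67. The other docking proteins contributed little, with Irs4 at 0 and Irs3 at no more than 3.90 normalized counts, 4 reads in T1 replicate 3.

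The binding proteins fell into 3 that were at 0 and 2 that were far lower in T1 than in T2 cells. Igfbp4, which binds both IGFs and is mostly described as an inhibitor of their action, was at 9009, 7852 and 7022 normalized counts in T1 cells. In T2 cells it was at 59070.1, 58125 and 56828.5. No T2 library came near the T1 range, and the T2 values lay within a narrow band, with means of 7961 ± 998 and 58008 ± 1125 (SD, n = 3). The log2 fold change was -2.87 (SE 0.093, 95% interval -3.08 to -2.67) with an adjusted p of 4.99e-09 by limma, and T2 cells held 7.29 times the T1 level. It took 0.302% to 0.308% of all reads on genes in the T2 libraries and 0.0364% to 0.047% in the T1 libraries. Ranked per kilobase of exon, Igfbp4 stood at 37, 33 and 34 among all genes in T2 replicates 1 to 3 and at 384, 476 and 542 in T1 replicates 1 to 3.

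Igfbp6, which prefers IGF-II, was at 11.6, 7.44 and 5.86 normalized counts in T1 cells and at 181, 118 and 163 in T2 cells. These rest on 11, 8 and 6 reads in T1 cells and on 185, 115 and 176 in T2 cells, and the ranges were far apart. The means were 8.31 ± 2.99 and 154 ± 32.7 (SD, n = 3), which is 18.5 times the T1 level in T2 cells. The log2 fold change was -4.08 (SE 0.30, 95% interval -4.75 to -3.42) with an adjusted p of 1.41e-06 by limma. With a pseudocount of 5 the log2 fold change was -3.58, since the pseudocount weighs on the few T1 reads. Despite the larger fold, Igfbp6 supplied 0.798% to 1.20% of the summed level of Igfbp1 to Igfbp6 per kilobase of exon in T2 cells and 0.330% to 0.510% in T1 cells, and Igfbp4 supplied the rest.

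Igfbp2, Igfbp3 and Igfbp5, which carry IGFs in serum and tissues, had 0 reads in each of the 6 libraries, which allows up to 3.17 normalized counts in any 1 of them. Igfbp1, the liver-secreted binding protein that insulin represses, was also at 0. Their genes are neighbours, with Igfbp2 and Igfbp5 5.46 kb apart on chromosome 1 and Igfbp1 and Igfbp3 3.54 kb apart on chromosome 11. Igfals, the subunit that stabilizes IGF in serum, was at 0 in T1 cells and at most 2.05 in T2 cells. Igfbp7, a secreted relative with low affinity for IGFs that is found in vessel walls and in senescent cells, went the other way from Igfbp4. It was at 1141, 894 and 1627 normalized counts in T1 cells and at 175, 269 and 151 in T2 cells, without overlap. Its log2 fold change was 2.61 (SE 0.24), with an adjusted p of 7.25e-06 by limma and 6.15 times the T2 level in T1 cells.

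**Figure D3:**
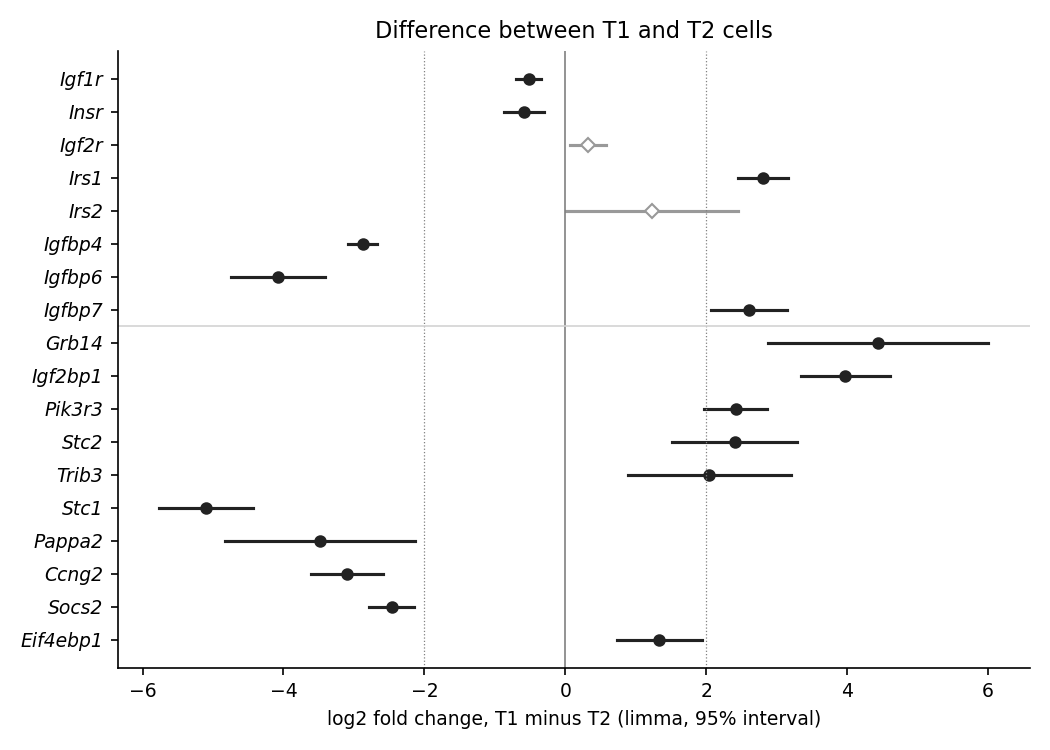
Log2 fold change of T1 against T2 cells with its 95% interval from limma, for the genes of the family that were tested (above the grey line) and for the other named pathway genes (below it). Filled points passed an adjusted p under 0.01, open diamonds (Igf2r and Irs2) did not, and dotted lines mark log2 fold changes of -2 and 2; Igfbp4 and Igfbp6 lie to the left of the lines and Irs1 and Igfbp7 to the right.

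The order of the levels per kilobase of exon differed between the populations. In T1 cells Igfbp4 (1803 ± 226 normalized counts per kb) was followed by Igfbp7 (1009 ± 309), Igf2r (423 ± 65.1) and Irs2 (163 ± 30.8). Igf1r (111 ± 6.58) and Insr (91.8 ± 17.3) came next with overlapping ranges, and Irs1 (45.7 ± 5.52) and Igfbp6 (7.47 ± 2.69) were lowest. In T2 cells Igfbp4 (13136 ± 255) was followed by Igf2r (336 ± 30.9). A group whose neighbours overlapped in range came below it, from Igfbp7 (164 ± 51.6), Igf1r (158 ± 8.05), Igfbp6 (139 ± 29.4) and Insr (137 ± 9.99) to Irs2 (99.2 ± 105). Irs1 (6.42 ± 0.614) was the lowest in T2 cells and its range did not reach that of Irs2. These errors are SD over 3 replicates.

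The neighbours of Igfbp4 on chromosome 11 were read beside it. Tns4, which encodes an adhesion adaptor and lies 11.3 kb beyond the end of Igfbp4, was at 793, 556 and 553 normalized counts in T1 cells and at 6713, 8401 and 7845 in T2 cells. Its log2 fold change was -3.61 (SE 0.14), with an adjusted p of 1.9e-08 by limma. Top2a, the topoisomerase of dividing cells on the other side at 17.1 kb, had a log2 fold change of -0.75 (adjusted p = 7.47e-06 by limma). Gjd3 and Ccr7, the next protein-coding genes out, were at no more than 4.90 normalized counts in any library. Around Igfbp6, Spryd3 (-0.65), Tns2 (-0.92) and Csad (-1.22) were also lower in T1 cells, with adjusted p values by limma of 0.000127, 2.04e-05 and 5.17e-05, while Soat2 at 1.01 kb stayed at or below 7.81 normalized counts. Next to Irs1, Rhbdd1 at 25.0 kb had a log2 fold change of -0.15 (adjusted p = 0.512 by limma), which was not called. Neighbouring genes are not replicates, and no test of the positions was made.

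**Figure D4:**
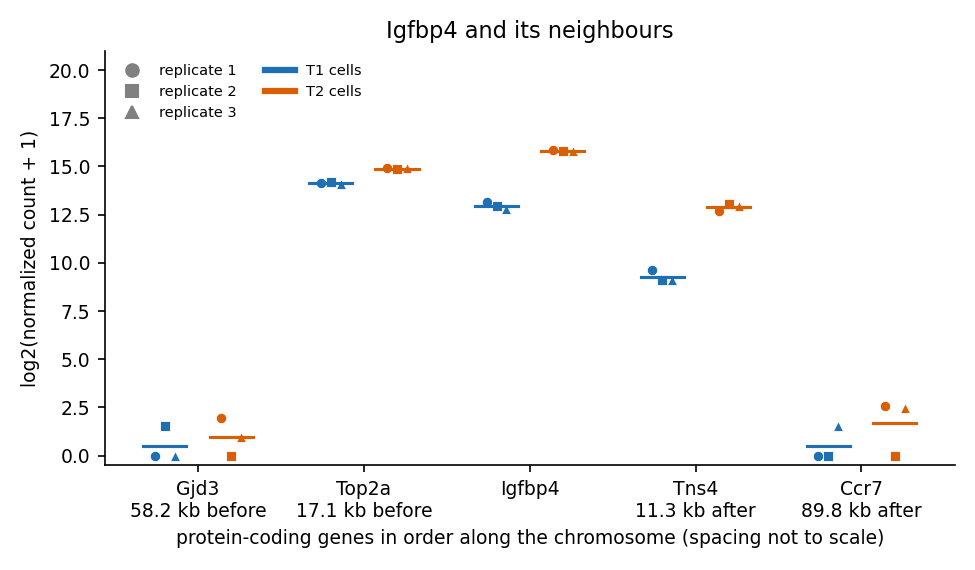
Level of Igfbp4 and of the nearest protein-coding genes on each side in each library, on a log2(normalized count + 1) scale, in chromosomal order with the distance to Igfbp4 in kb (spacing not to scale), T1 cells in blue, T2 cells in orange and lines for the means of the log2 values. Tns4 and Igfbp4 are separated widely between the populations, Top2a by less, and Gjd3 and Ccr7 are near 0.

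A list of 66 other genes of the pathway was counted by role. Of these, 10 were at 0 and 53 were tested, of which 14 were higher in T1 cells (26.4%, against 25.1% of all genes), 21 lower (39.6%, against 24.4%) and 18 not called. Their median log2 fold change was -0.17. Over the alternative settings the count ranged from 10 to 15 higher and from 15 to 21 lower. Past both thresholds there were 6 on the T1 side (11.3%, against 4.17% of all genes) and 4 on the T2 side (7.55%, against 4.2%). Among these, Grb14, Pappa2 and Stc1 passed the filter on low values only through the population where they were higher.

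Of the 5 genes listed that act on the binding proteins, 4 were tested. In T1 cells 2 were higher (50%, against 25.1% of all genes) and 2 lower (50%, against 24.4%). The 2 lower genes, Pappa2 and Stc1, passed the filter on low values through their level in T2 cells alone. Pappa, the protease known for cleaving Igfbp4, was at 0 in all libraries. Its relative Pappa2, which cleaves Igfbp3 and Igfbp5, was at 0, 3.72 and 0.976 normalized counts in T1 cells and at 13.7, 31.7 and 26.0 in T2 cells. The log2 fold change was -3.48 (adjusted p = 0.00058 by limma) but ranged from -4.06 to -2.12 over the alternatives in which it was tested, as few reads lay behind the T1 values. The stanniocalcins, secreted inhibitors of both proteases, went opposite ways. Stc1 was at 9.52, 4.65 and 11.7 in T1 cells and at 290, 321 and 324 in T2 cells, with a log2 fold change of -5.10 (SE 0.30, adjusted p = 2.9e-07 by limma). Stc2 was at 55.0, 69.8 and 153 in T1 cells and at 21.5, 15.4 and 10.2 in T2 cells, with a log2 fold change of 2.40 (SE 0.40, adjusted p = 0.00043 by limma), and 1.97 without T1 replicate 3. Htra1, a secreted serine protease that cleaves several binding proteins, was abundant in both populations, at 12960 ± 1320 in T1 and 4798 ± 88.0 in T2 cells (SD, n = 3), with a log2 fold change of 1.43 (adjusted p = 2.61e-07 by limma).

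Of 16 adaptors and kinases between the receptors and AKT, all were tested. In T1 cells 4 were higher (25%, against 25.1% of all genes) and 6 lower (37.5%, against 24.4%). Pik3r3, a regulatory subunit of PI3K, was the only one of these past both thresholds. It was at 210, 218 and 167 normalized counts in T1 cells and at 39.2, 39.9 and 29.7 in T2 cells, with a log2 fold change of 2.42 (SE 0.20, adjusted p = 3.54e-06 by limma). The catalytic subunits of PI3K differed in direction, with Pik3cb at 1.52 and Pik3ca at -0.49 on the log2 scale (adjusted p = 2.43e-06 and 0.00102 by limma). The kinases Akt1 (-0.17) and Akt2 (-0.0012) were not called.

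Among the 13 FOXO, GSK3 and mTOR genes, none was past both thresholds. T1 cells had 3 higher (23.1%, against 25.1% of all genes) and 5 lower (38.5%, against 24.4%). Eif4ebp1, the translational repressor that mTOR phosphorylates, had the largest change, at 4334, 4143 and 9896 normalized counts in T1 cells and 2514, 2207 and 1996 in T2 cells. T1 replicate 3 lay far above the other T1 libraries. The log2 fold change was 1.33 (SE 0.27, adjusted p = 0.00158 by limma), and 0.93 without T1 replicate 3. The call was lost without T2 replicate 3 (adjusted p = 0.0116 by limma). Of 8 known FOXO target genes, 4 were at 0 and 4 were tested. In T1 cells 3 of these were lower (75%, against 24.4% of all genes) and 0 higher (against 25.1%). They included Sesn3 (-1.05, adjusted p = 0.000385 by limma) and Trib1 (-1.32, adjusted p = 0.00627 by limma). Trib1 was at 1255, 2707 and 1722 in T1 cells and at 3250, 8020 and 3488 in T2 cells. T2 replicate 2, where Irs2 also stood out, lay over 2-fold above both other T2 libraries for Trib1. Ccng2, the cell cycle inhibitor cyclin G2, was at 164, 170 and 320 in T1 cells and at 1863, 1507 and 2039 in T2 cells, with a log2 fold change of -3.10 (SE 0.23, adjusted p = 1.55e-06 by limma).

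Of 12 inhibitors of the pathway, Grb10 was at 0 and 11 were tested. In T1 cells 3 were higher (27.3%, against 25.1% of all genes) and 4 lower (36.4%, against 24.4%). Grb14, an adaptor that binds the insulin receptor and inhibits its kinase, was at 49.7, 88.4 and 90.8 normalized counts in T1 cells and at 2.94, 0 and 9.28 in T2 cells. Its log2 fold change was 4.44 (SE 0.70, adjusted p = 0.000305 by limma), which was 3.55 without T2 replicate 2, 5.23 without T2 replicate 3 and 3.25 with a pseudocount of 5. Grb14 passed the filter through its level in T1 cells, with 3, 0 and 10 reads in the T2 libraries. Trib3, a pseudokinase that binds AKT, was at 495, 524 and 2636 in T1 cells and at 259, 224 and 165 in T2 cells, with a log2 fold change of 2.05 (SE 0.52, adjusted p = 0.00601 by limma). In T1 replicate 3, Trib3, Stc2 and Eif4ebp1 were each over 2-fold above both other T1 libraries, as were 93 of all genes tested, and without it the value of Trib3 was 1.26. The call of Trib3 was lost when any 1 T2 library was left out (adjusted p of 0.0163 to 0.0333 by limma). Socs2, a feedback inhibitor of growth hormone and IGF signalling, was at 94.2, 93.0 and 103 in T1 cells and at 609, 475 and 538 in T2 cells, with a log2 fold change of -2.46 (SE 0.14, adjusted p = 2.57e-07 by limma). Socs1 (-1.47) and Socs3 (-1.57) were also lower in T1 cells, with adjusted p values of 0.000942 and 0.00912 by limma. Socs3 was at 344, 1587 and 836 in T1 cells and at 1811, 3028 and 2164 in T2 cells. T1 replicate 2 thus lay close to the lowest T2 library.

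The proteins that bind Igf2 mRNA were also read. Igf2bp1, an oncofetal RNA-binding protein, was at 1015, 1035 and 842 normalized counts in T1 cells and at 66.6, 92.1 and 35.3 in T2 cells. The log2 fold change was 3.97 (SE 0.28, adjusted p = 1.2e-06 by limma), and T1 cells held 14.9 times the T2 level. Igf2bp2 was lower in T1 cells (-0.74, adjusted p = 1.32e-05 by limma), and Igf2bp3 was not called (-0.65, adjusted p = 0.0676 by limma).

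**Figure D5:**
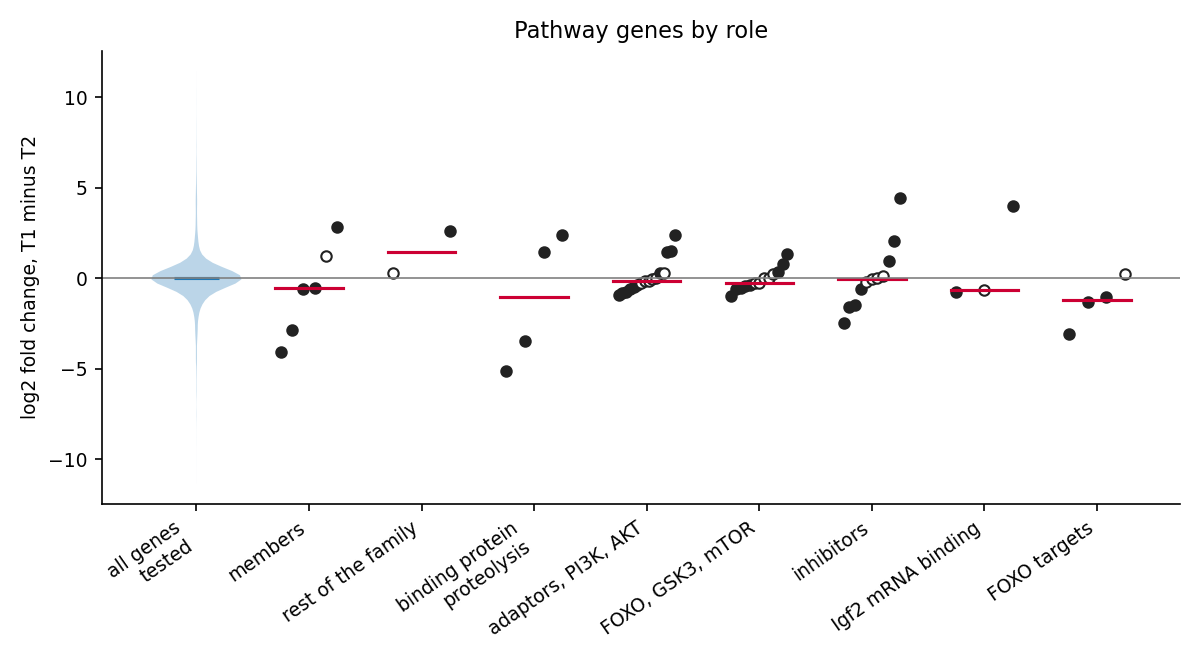
Log2 fold change of T1 against T2 cells for each gene tested, by role; filled points passed an adjusted p under 0.01, open points did not, red lines are medians and the blue shape is the distribution over the 11514 genes tested. The medians of the groups with 11 or more genes lie between -0.23 and -0.06, close to that of all genes (-0.0055), while genes inside these groups lie on both sides of 0.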

How the data were processed

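RNA-seq values of 3 T1 and 3 T2 replicates were used. The members and gene lists were chosen with earlier results of these data known. The authors trimmed reads with Trimmomatic, aligned with TopHat2 to mm10, obtained gene counts from HTSeq and scaled these by DESeq2 size factors. Annotation, strand setting and versions are not given in the sources used here. The deposited signal is thus a normalized count, and 100% of values above 0 were whole reads within 0.1 read, which recovered the reads. Floors cover counting error only, and the limma intervals cover only the spread between these replicates. No column was left out (0 unused). The labels do not say whether replicates were separate cultures, so p-values measure only the spread between these samples.

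Genes with a mean of at least 10 were compared with limma 3.58.1 (R 4.3.3, variance trend) on log2(normalized count + 1), which understates changes of low genes, with Benjamini-Hochberg adjustment at 0.01. The script was run on simulated data with 200 planted 8-fold changes in genes with a mean of at least 50, and it recovered 200 of them. Smaller changes, changes in genes with low counts and libraries that stand apart were not simulated. Besides the members and their family, pathway genes past both thresholds were named, or, in a list without one, the gene with the largest change called. Coordinates and exonic lengths came from GENCODE M21 (23103 symbols matched, 95.7%). Alternatives were pseudocounts of 0.5 and 5, no filter or a minimum mean of 50, quantile normalization, no variance trend, edgeR 4.0.16 and DESeq2 1.42.0 on recovered reads, a replicate block and each replicate left out. Figures used matplotlib 3.10.9 in Python 3.11.15.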

Additional observations from a re-analysis of the deposited data

How the results depend on the processing

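Of the single-gene results under the alternatives, 257 kept their direction and their side of the threshold, 8 lost the call and 2 gained it, and none changed sign. The count of members higher in T1 cells, at the adjusted p alone or past both thresholds, ranged from 1 to 2 when each replicate was left out. It was 2 only without T2 replicate 2, where Irs2 was added. The log2 difference of the ratio of Insr to Igf1r ranged from -0.17 to 0.03 over the replicates left out, and reversed to 0.0168 without T1 replicate 1 and 0.0277 without T2 replicate 3. Trib3 lost its call without the variance trend (adjusted p = 0.032 by limma) and without each T2 replicate in turn (0.0163, 0.0188 and 0.0333), and Eif4ebp1 without the variance trend (0.0141) and without T2 replicate 3 (0.0116). The cause was not tested. Same-numbered replicates deviated together with correlations of 0.057, 0.172 and 0.104 over genes, the best match of each T1 replicate. Only T2 replicate 1 correlated better with another number, T1 replicate 3 (0.072). The labels do not say whether the numbers pair the samples, so the main fit was unpaired and the replicate block was an alternative. With the replicate block the members gave 1 higher and 4 lower, as without it, and 2926 and 2854 of all genes against 2888 and 2813. In that fit Igf2r was called (adjusted p = 0.00931 by limma). The adjusted p of Irs2 by limma moved from 0.0735 to 0.0145, still not called, and that of Insr from 0.00222 to 0.000363.
With 3 replicates a group the spread is known from few samples, and Igf1 and Igf2, with at most 2 reads in any library, were not tested.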
